A study of Sus scrofa with 40 samples.

Results

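The comparison described here sets the corticomedullary junction (CMJ) of the pig kidney against the cortex (C) after warm ischemia (WI). It uses 10 of the 40 arrays of the series: 5 arrays of the junction (WI-CMJ 1 to 5) and 5 arrays of the cortex (WI-C 1 to 5), chosen by their sample titles. All kidneys came from Large White pigs aged 3 months, and each condition held 5 independent kidneys. In the WI group the renal vessels were clamped, the kidney was taken out and kept clamped for 60 min at 37 °C, and biopsies were frozen at once, with no flush and no cold storage. Control (Ctl) kidneys were removed, sampled and frozen without ischemia. Another set of 5 kidneys had the same 60 min of WI, was flushed with University of Wisconsin solution at 4 °C and kept at that temperature, and was sampled at 6 h and again at 24 h of cold storage (CS). The kidneys were not reperfused, so every value describes tissue before blood flow returns. Junction and cortex arrays with the same number were taken as a pair. The labels do not say that such arrays come from the same kidney. They also do not say how the 2 zones were cut apart.

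The cortex holds the glomeruli, the convoluted parts of the proximal and distal tubules and the cortical collecting ducts. The junction holds the outer medulla's straight proximal tubules and thick ascending limbs, with the arcuate vessels and the connective tissue around them, and it works close to its oxygen limit even in the healthy kidney. Immediate early genes encode transcription factors such as FOS and EGR1 whose transcripts appear within minutes of a stress because no new protein is needed to start them. Collagen I, built from the COL1A1 and COL1A2 chains, is the main fibrillar protein of connective tissue and of vessel sheaths. A biopsy mixes all these cells, so in each result fewer cells of a type and less RNA per cell cannot be told apart.

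Each array carried 43803 spots outside the controls, and the share of them well above background, by the scanner software's own call, was 62.83% to 67.03% in WI-C and 61.86% to 66.74% in WI-CMJ. The mean difference within pairs was 0.254 percentage points (SD 3.2, n = 5, exact two-sided sign permutation test, p = 0.875, smallest possible 0.0625). All expression values are log2 of the array signal after the arrays were brought to a common distribution, called log2 intensity here, and a difference of 1 is a doubling. Differences are junction minus cortex. A gene or transcript identifier was called higher or lower when its adjusted p was under 0.05 and its difference was at least 0.5 in size (limma, Benjamini-Hochberg adjustment over all 35923 identifiers tested).

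Some of the junction arrays stood apart before any test. The identifier EF601160 of ADIPOQ, which encodes adiponectin, a hormone made by fat cells, was well above background on 3 of the 40 arrays, and these were WI-CMJ 1, 3 and 5. Its log2 intensity was 6.23, 0.50, 7.05, 0.48 and 7.53 in WI-CMJ 1 to 5, and 0.48, 0.46, 0.47, 0.72 and 0.77 in WI-C 1 to 5. On the 30 arrays of the other conditions it lay between 0.36 and 1.12. A second identifier, JX092267, was well above background on 4 of the 40 arrays, the same 3 junction arrays among them. The brightest ADIPOQ identifier, NM_214370, had 3.31, 1.90, 3.88, 2.21 and 4.49 in WI-CMJ and 1.46, 2.35, 2.20, 1.83 and 1.91 in WI-C. WI-CMJ 1, 3 and 5 were again the highest, and its mean difference of 1.21 was not called (adjusted p = 0.0558). The identifier TC548268, matched by accession to SOX10, a transcription factor of nerve-sheath and other neural crest cells, read 3.33, 1.64, 4.60, 2.21 and 5.12 in WI-CMJ and 0.22 to 1.37 in WI-C. It was well above background on WI-CMJ 1, 3 and 5 and on 2 arrays of the other conditions, Ctl-C 1 (2.91) and the junction array 4 at 24 h of storage (3.79). The brighter SOX10 identifier NM_001099933 did not share this pattern, at 2.88 to 3.82 in WI-C and 2.68 to 3.77 in WI-CMJ, with a difference of -0.06 (adjusted p = 1). MBP, a myelin protein, read 5.85, 5.11, 6.25, 5.30 and 6.57 in WI-CMJ and 4.90 to 5.28 in WI-C. ADIPOQ, SOX10 and MBP were picked after their values were seen. Whether the biopsies of WI-CMJ 1, 3 and 5 held other tissue was not tested. Results that rest on these arrays are therefore given with all 5 pairs and with pairs 2 and 4 alone, a choice made after seeing the data. With 2 pairs no identifier was called, and only values are compared.

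For each of the genes that lead the results 1 array probe of 60 bases is shown here 5′ to 3′, since signals in this study are read on such sequences. The values of EGR1, COL1A1 and COL1A2 come from the probe shown alone. Those of KLF4 and SLC5A1 are means of 7 and 5 probes with the probe shown among them, and the FOS probe shown belongs to another FOS identifier, NM_001123113, than the values given below. FOS, EGR1 and KLF4 are the immediate early factors, SLC5A1 is a segment marker, and the collagen I chains are shown together because their probes can be compared letter by letter. Capitals in the last 2 mark the longest run of bases that the collagen probes share, 10 in all. All others are in lower case.
FOS: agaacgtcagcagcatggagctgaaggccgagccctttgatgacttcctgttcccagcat
EGR1: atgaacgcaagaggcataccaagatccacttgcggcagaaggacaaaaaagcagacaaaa
KLF4: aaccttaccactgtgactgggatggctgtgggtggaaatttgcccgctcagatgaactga
SLC5A1: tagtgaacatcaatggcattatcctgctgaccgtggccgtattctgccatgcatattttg
COL1A1: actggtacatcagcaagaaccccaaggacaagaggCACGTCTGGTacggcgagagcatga
COL1A2: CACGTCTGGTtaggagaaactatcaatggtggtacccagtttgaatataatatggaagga

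Across the array, 604 of 35923 identifiers were called between junction and cortex after WI, which is 1.68% of those tested. Of these, 472 were higher in the junction (1.31% of all tested) and 132 were lower (0.367%). The median difference over all identifiers was -0.02, and the median size among the called ones was 0.84. In 555 of the 604, all 5 pairs had the same sign, while over all identifiers 5.23% were higher in all 5 pairs and 5.98% lower. In 405 of the 604 the 5 junction and 5 cortex values did not overlap, as for 3.16% of all identifiers (1.97% with the junction higher and 1.19% lower). With pairs 2 and 4 alone, which are part of the data that made the calls, 473 of the 603 called identifiers that could be measured still differed by at least 0.5 with the same sign, and the median size was 0.74. Without the pairing by number, 241 identifiers were called instead of 604, 236 of them among the 604. A fit of the WI arrays alone, with no spread borrowed from the other conditions, called 0 by limma (3749 at an unadjusted p under 0.05), as did a fit with the array slide as a term (2769), and leaving out replicate 1, 4 or 5 left 228, 355 or 213.

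The members of each gene list are drawn in the plot of list members, where the smooth muscle (median 0.62), fibroblast (0.61), thick ascending limb (0.40), urothelium (0.39) and immediate early (0.36) lists had the highest medians and the intercalated cell list the lowest (-0.72). The urothelium list, with 6 measured genes of which 1 was called and 2 were not well above background on any WI array, had a median of 0.08 in pairs 2 and 4 and 0.14 in Ctl.

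**Figure D1:**
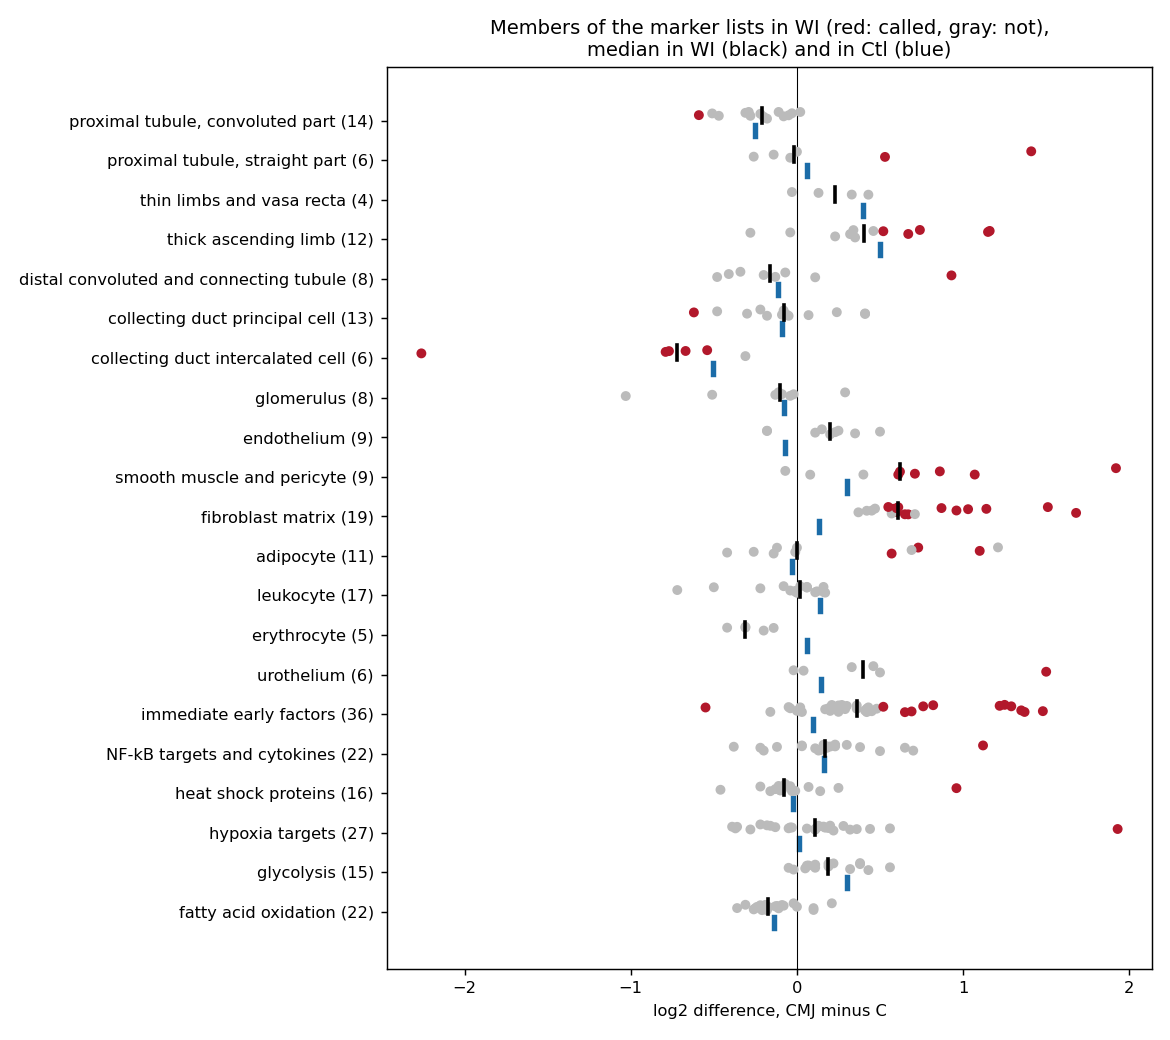
Log2 difference, junction minus cortex, of every measured member of each gene list in the WI kidneys. Each point is a gene, red where called and gray where not; the black bar is the list's median after WI and the blue bar its median in Ctl kidneys, with the number of measured members in brackets. The fibroblast matrix list has a median of 0.61 after WI and 0.13 in Ctl, and the thick ascending limb list 0.40 and 0.50.

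Of 52 listed immediate early factors 36 were measured, and 11 of them were called higher in the junction after WI, 1 was called lower and 24 were not called, against 1.31% higher and 0.367% lower over all identifiers. The median of the 36 was 0.36, beside -0.02 over all identifiers, and 31 had a positive sign. The mean log2 intensity of the list ran from 7.31 to 7.48 over the WI-C arrays and from 7.77 to 7.97 over the WI-CMJ arrays, with no overlap. With pairs 2 and 4 alone the median was 0.24 and 26 of 36 were positive, and without the pairing 6 members were called (0.671% over all identifiers). In Ctl kidneys the median was 0.10, and 3 members were called higher and 1 lower (0.791% and 0.203% over all identifiers).

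FOS, the partner of JUN in the AP-1 factor, had the largest difference of the list. It read 10.97, 10.85, 11.06, 10.92 and 10.79 in WI-C 1 to 5 and 12.35, 12.19, 12.56, 12.23 and 12.67 in WI-CMJ 1 to 5. Every junction array lay above every cortex array, with means of 12.40 ± 0.21 and 10.92 ± 0.11 (SD, n = 5). The difference was 1.48 (SE 0.17), or 2.79-fold (adjusted p = 0.000378). The 3 probes of this identifier gave 1.46 to 1.5, and the probe of NM_001123113 gave 1.47. Pairs 2 and 4, which leave out the arrays with ADIPOQ signal, gave 1.32. Arrays of both zones shared slides 4 and 5, where the junction array was higher by 1.43 and 1.13. Of the 56 called genes named by rule, 56 had the sign of the mean difference on slide 4 and 47 on slide 5, where TNC (-0.85), ATP6V1C2 (0.44), ESM1 (0.28), GRIN2B (-0.27) and LPL (-0.25) were among those that did not. For FOS, within the 2 scan days the differences were 1.27 and 1.79. With slide as a term FOS was at 1.61 (adjusted p = 0.164), and in the WI arrays alone the adjusted p was 0.0614.

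EGR1, a zinc finger factor switched on by growth factors and stress, measured 4.17, 4.24, 4.76, 4.44 and 4.65 in WI-C and 5.62, 5.35, 5.87, 5.78 and 6.12 in WI-CMJ. The groups did not overlap, and the junction was higher by 1.29 (SE 0.14), or 2.45-fold (adjusted p = 0.000378). Pairs 2 and 4 gave 1.22, slides 4 and 5 gave 1.18 and 0.58, the scan days gave 1.12 and 1.55, and the slide term raised the adjusted p to 0.164. A single dim probe measured it, and with another background correction (normexp) the difference was 0.28, below the size set for a call, so its size depends on the background correction.

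KLF4, a factor that holds cells out of division, read 6.82, 6.69, 7.16, 6.90 and 6.65 in WI-C and 8.30, 8.06, 8.06, 8.33 and 8.21 in WI-CMJ. The 5 junction values were close together and all above the cortex, and the difference was 1.35 (SE 0.17), or 2.55-fold (adjusted p = 0.000904), over 7 probes that ranged from 1.21 to 1.43. Pairs 2 and 4 gave 1.40. FOSB, a relative of FOS, had 2.87, 2.39, 1.78, 2.36 and 3.02 in WI-C, where it was well above background on 2 arrays, and 3.75, 3.22, 4.61, 3.59 and 4.12 in WI-CMJ. It was higher in the junction by 1.37 (SE 0.30, adjusted p = 0.0203), and was not called without the pairing (adjusted p = 0.131). Near the background its size is uncertain, and normexp gave 0.11.

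JUN was bright in both zones, with 13.30, 13.30, 13.34, 13.12 and 13.19 in WI-C and 13.77, 13.76, 13.79, 13.70 and 13.84 in WI-CMJ. Its difference was small and uniform, 0.52 (SE 0.12, adjusted p = 0.0293), and was not called without the pairing (adjusted p = 0.391). BTG2, which restrains the cell cycle, read 9.63, 9.23, 9.35, 9.56 and 9.49 in WI-C and 10.32, 9.80, 10.42, 9.88 and 10.65 in WI-CMJ, a difference of 0.76 (SE 0.13, adjusted p = 0.00408, and 0.204 without the pairing) that was 0.45 in pairs 2 and 4. The matricellular genes CYR61 and CTGF were higher by 1.25 and 1.22, the kinase phosphatase DUSP6 by 0.82, and the helix-loop-helix inhibitors ID1 and ID3 by 0.69 and 0.65. Their differences in Ctl kidneys were 1.01, 1.12, 0.76, 0.37 and 0.36, and those in pairs 2 and 4 were 1.02, 0.99, 0.91, 0.85 and 0.70. The growth arrest gene GADD45A was the only member called lower, by -0.55, beside -0.47 in Ctl, and was not called without the pairing. The factor MYC, at 0.42 (adjusted p = 0.0293), and KLF5, at 0.43 (adjusted p = 0.0203), passed the p threshold and not the size. NR4A2, MCL1 and SOCS3, which belong to the same early class, had differences of 0.27, 0.03 and -0.05 and were not called.

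**Figure D2:**
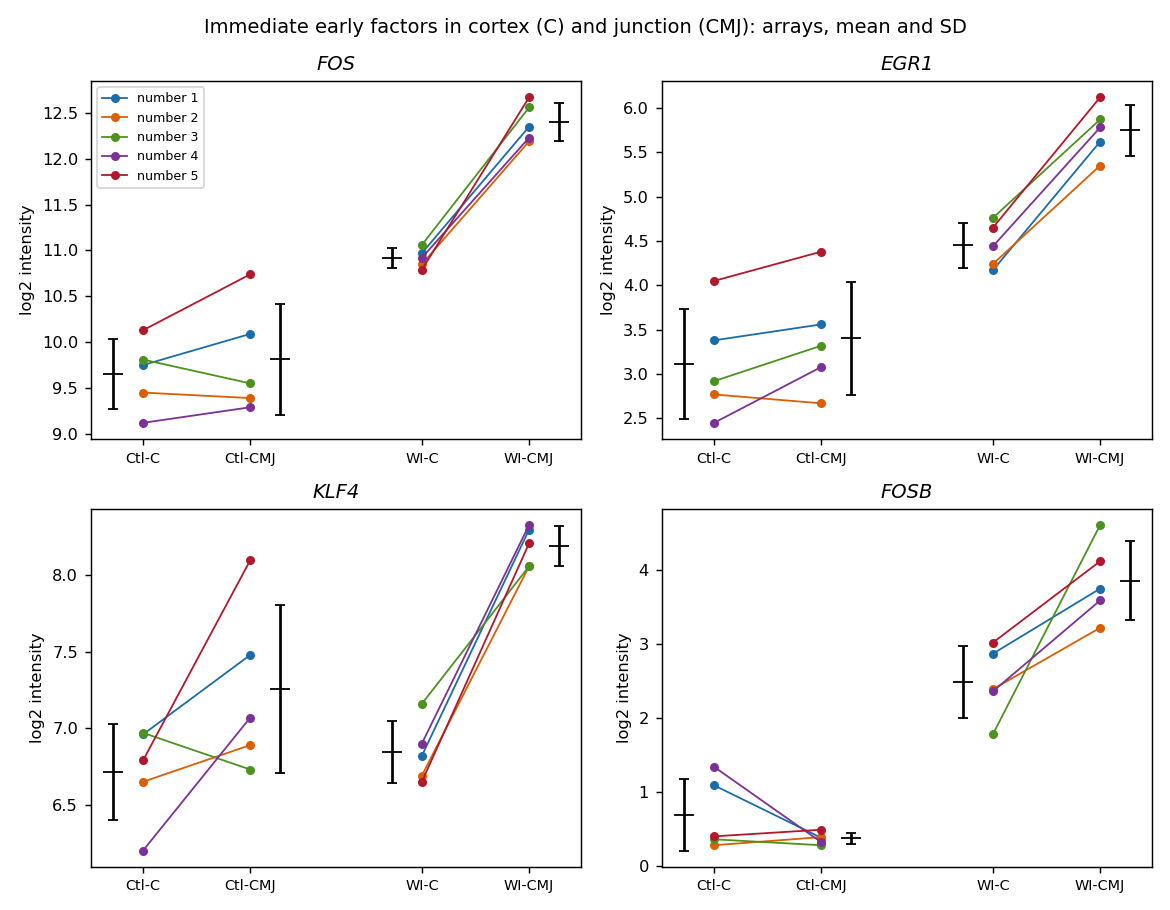
Log2 intensity (vertical axis) of FOS, EGR1, KLF4 and FOSB on the Ctl-C, Ctl-CMJ, WI-C and WI-CMJ arrays. Points are single arrays, lines join junction and cortex arrays of the same number, and the bars beside them give mean ± SD of 5 arrays. WI-CMJ values of FOS, 12.19 to 12.67, lie above all other arrays shown, and in Ctl kidneys the junction and cortex points of FOS, EGR1, KLF4 and FOSB overlap.

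Of 23 listed genes of the fibroblast matrix 19 were measured, and 13 of them were called higher in the junction after WI, 0 lower and 6 not called, beside 1.31% higher and 0.367% lower over all identifiers. All 19 had a positive sign, with a median of 0.61, and in Ctl 0 were called, with a median of 0.13. The list's mean log2 intensity was 7.43 to 7.78 over WI-C and 7.89 to 8.93 over WI-CMJ. The junction arrays with ADIPOQ signal were WI-CMJ 1, 3 and 5. With pairs 2 and 4 alone the median was 0.35, with 18 of 19 positive and 0 called, and without the pairing 5 members were called.

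COL1A1 read 7.26, 8.08, 8.22, 7.91 and 7.60 in WI-C and 8.99, 8.94, 10.18, 8.40 and 10.96 in WI-CMJ. The groups did not overlap, but the junction arrays spread widely, with WI-CMJ 5 and 3 the highest and WI-CMJ 4 close to the cortex. The difference was 1.68 (SE 0.33), or 3.20-fold (adjusted p = 0.011), and pairs 2 and 4 gave 0.67. The call was lost without replicate 1 (1.66, adjusted p = 0.0548) or 5 (1.26, adjusted p = 0.0694). Within the scan days it was 0.98 and 2.73, and with slide as a term the adjusted p was 0.314. Other identifiers of COL1A1 gave -0.16 and 0.86. The one at -0.16 was about as bright in the cortex as the probe shown, with means of 7.66 in WI-C and 7.49 in WI-CMJ. The one at 0.86 was dim, with means of 0.27 and 1.13. COL1A2, the second chain of collagen I, had 9.16, 9.31, 9.53, 9.20 and 9.06 in WI-C and 10.72, 10.18, 11.37, 9.61 and 11.93 in WI-CMJ. The junction arrays ranked in the same order as for COL1A1, and the difference was 1.51 (SE 0.28, adjusted p = 0.00832), 0.64 in pairs 2 and 4. The part of the 3 arrays' makeup in these differences was not tested.

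Other matrix genes called higher were FN1, fibronectin, by 1.14 (1.00 in pairs 2 and 4), and COL6A2, a chain of the beaded collagen VI, by 1.03 (0.74). With normexp FN1 stayed called at 0.97, while COL6A2 was at 0.21 and not called. The proteoglycan BGN was higher by 0.96, COL6A3 by 0.87, the collagen-binding DCN by 0.67 and the microfibril protein FBN1 by 0.65. COL6A1, COL5A2, SPARC, COL5A1 and OGN were higher by 0.61, 0.60, 0.60, 0.58 and 0.55. In pairs 2 and 4 these 9 genes, from BGN to OGN, ranged from 0.75 for BGN to 0.13 for OGN. Not called were THY1 at 0.71, MGP at 0.57, COL14A1 at 0.47, LUM at 0.45, POSTN at 0.42 and LOX at 0.37.

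In the smooth muscle and pericyte list, 6 of 9 measured genes were called higher and 0 lower (1.31% and 0.367% over all identifiers), with a median of 0.62 (0.28 in pairs 2 and 4), and 3 were called without the pairing. CNN1, calponin, a contractile protein of smooth muscle, read 6.11, 6.71, 6.70, 6.33 and 6.45 in WI-C and 8.29, 7.31, 9.39, 6.93 and 9.99 in WI-CMJ. All junction values were above the cortex, and WI-CMJ 1, 3 and 5 were again the highest. The difference was 1.92 (SE 0.32, adjusted p = 0.00398) and was 0.60 in pairs 2 and 4. The vessel-wall regulator RGS5 was higher by 1.07, smooth muscle actin ACTA2 by 0.86, tropomyosin TPM2 by 0.71, desmin DES by 0.62 and the myosin light chain MYL9 by 0.61. The differences in pairs 2 and 4 were 0.55 for RGS5, 0.28 for ACTA2, 0.21 for TPM2, 0.26 for DES and 0.61 for MYL9. PDGFRB at -0.07, CALD1 at 0.08 and MYLK at 0.40 were not called.

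Of 11 measured fat cell genes, 3 were called higher (1.31% over all identifiers), with a median of 0.00 (-0.12 in pairs 2 and 4): LPL, which frees fatty acids from lipoproteins, by 1.1, the fatty acid carrier FABP4 by 0.73 and the complement factor CFD by 0.57. In pairs 2 and 4 they were at 0.96, 0.26 and 0.43, and none of these 3 was called without the pairing (adjusted p = 0.156, 0.212 and 0.0594). With normexp LPL and FABP4 were at 0.18 and 0.46 and not called, while CFD stayed called at 0.55. Among the defining fat cell genes, ADIPOQ had the largest difference (1.21 at its brightest identifier, not called). The zones lay further apart at its identifier EF601160 on the arrays with ADIPOQ signal, as given above. PLIN1 and RETN were not well above background on any WI array, LEP was at -0.26 and LIPE at -0.01. No member of the skeletal muscle list was called (11 measured, CKM 1.30, adjusted p = 0.0767), nor of the leukocyte list (17 measured, median 0.02) or the endothelium list (9 measured, median 0.20).

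**Figure D3:**
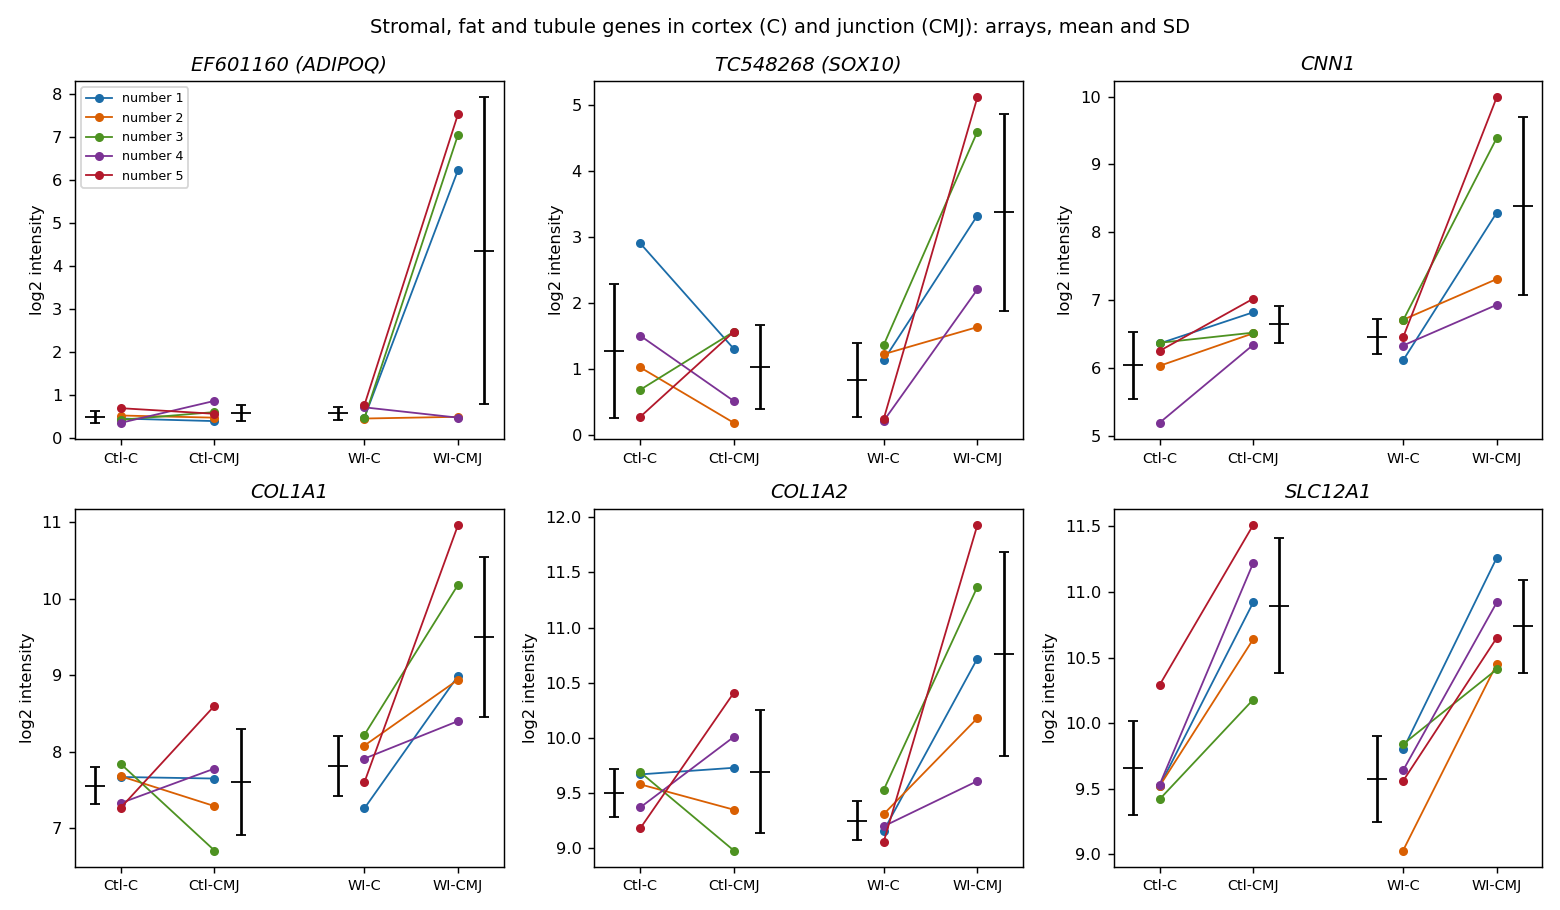
Log2 intensity (vertical axis) of the identifiers EF601160 (ADIPOQ) and TC548268 (SOX10) and the genes CNN1, COL1A1, COL1A2 and SLC12A1 on the Ctl-C, Ctl-CMJ, WI-C and WI-CMJ arrays. Points are single arrays, lines join arrays of the same number, and bars give mean ± SD of 5 arrays. ADIPOQ is at 6.23 to 7.53 on WI-CMJ 1, 3 and 5 and at most 1.12 elsewhere; these 3 arrays are also the highest of WI-CMJ for TC548268 and CNN1, while the thick ascending limb gene SLC12A1 is higher on all 5.

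The markers of nephron segments bore on whether the arrays carry the zones they are labelled with. Of 12 measured thick ascending limb genes, 5 were called higher in the junction and 0 lower (1.31% and 0.367% over all identifiers), with a median of 0.40 after WI and 0.50 in Ctl, and 2 were called without the pairing. SLC12A1, the sodium-potassium-chloride cotransporter NKCC2 that loop diuretics block, read 9.80, 9.03, 9.84, 9.64 and 9.56 in WI-C and 11.26, 10.45, 10.41, 10.92 and 10.65 in WI-CMJ. No values overlapped. It was higher by 1.16 (SE 0.20), or 2.24-fold (adjusted p = 0.00478), beside 1.24 in Ctl and 1.35 in pairs 2 and 4. The tight junction gene CLDN19 ran from 9.50 to 10.18 in WI-C and from 10.65 to 11.37 in WI-CMJ, again with no overlap, a difference of 1.15 (adjusted p = 0.00286) that was 1.15 in Ctl. The calcium-sensing receptor CASR was higher by 0.74, CLDN16 by 0.67 and kininogen KNG1 by 0.52, none of them called without the pairing (adjusted p = 0.214, 0.302 and 0.573). With normexp CASR was at 0.11 and CLDN16 at 0.48, and neither was called. The potassium channel KCNJ1, at 0.46 (adjusted p = 0.0278), and CLDN10, at 0.34 (adjusted p = 0.0302), missed the size.

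In the straight proximal tubule list 2 of 6 measured genes were called higher (1.31% over all identifiers), while the other 4 had a negative sign, and the list's median was -0.02 (0.06 in Ctl). SLC5A1, the glucose transporter SGLT1 of the late proximal tubule, measured 6.75, 6.87, 7.29, 6.65 and 6.62 in WI-C and 8.49, 7.76, 8.10, 8.60 and 8.25 in WI-CMJ. The zones were fully separated, by 1.41 (SE 0.22), or 2.65-fold (adjusted p = 0.00311), and its 5 probes gave 1.28 to 1.46. The difference in Ctl was 1.40, and that in pairs 2 and 4 was 1.42. The sugar transporter SLC5A10 was higher by 0.53 (adjusted p = 0.121 without the pairing). Of 14 measured genes of the convoluted proximal tubule, 13 had a negative sign, with a median of -0.21 (-0.25 in Ctl), and 1 was called. That was the organic anion transporter SLC22A6, with 11.38, 11.96, 11.40, 11.49 and 11.83 in WI-C and 10.71, 11.25, 11.09, 10.86 and 11.20 in WI-CMJ, every junction array below every cortex array. The difference was -0.59 (SE 0.14, adjusted p = 0.0248, and 0.0686 without the pairing). Glucose-6-phosphatase G6PC, at -0.51 (adjusted p = 0.0716), was not called, and the endocytic receptor LRP2 was at -0.03.

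Genes of the intercalated cells, which move acid and bicarbonate in the collecting duct, had the lowest median. All 6 measured members had a negative sign, 5 were called lower (0.367% over all identifiers), 2 of them also without the pairing, and the median was -0.72, beside -0.50 in Ctl and -0.75 in pairs 2 and 4. SLC26A4, pendrin, the chloride-bicarbonate exchanger of the base-secreting type, read 4.67, 4.99, 4.39, 3.92 and 4.83 in WI-C and 1.36, 3.24, 2.73, 1.75 and 2.44 in WI-CMJ, where it was well above background on 1 array. Its difference was -2.26 on the log2 scale (SE 0.31, adjusted p = 0.0018), beside -1.30 in Ctl. At these levels its size is uncertain: normexp gave -0.19, below the size for a call, and the deposited values -0.70. The ammonia transporters RHBG and RHCG were at -0.79 and -0.67, the proton pump subunit ATP6V1C2 at -0.77 and carbonic anhydrase CA2 at -0.54. With normexp RHCG was at -0.25 and not called, while RHBG and ATP6V1C2 stayed called. The anion exchanger SLC4A1, at -0.31, was not called. Of 13 principal cell genes only STC1 was called, at -0.62 (adjusted p = 0.79 without the pairing), and the water channel AQP2 was at 0.41 (adjusted p = 0.186). In the distal convoluted and connecting tubule list 6 of 8 measured genes had a negative sign, with a median of -0.16, and PVALB alone was called, higher by 0.93 (adjusted p = 0.324 without the pairing), while CALB1 was at -0.48. No gene was called in the thin limb and vasa recta list (4 measured, median 0.23), the osmolyte list (5, median 0.19) or the erythrocyte list (5, median -0.31). None of 8 glomerular genes was called, although WT1, a podocyte factor, was at -0.51 (adjusted p = 0.0512). UPK3A, a protein of the lining of the renal pelvis and bladder, read 8.33, 8.46, 9.57, 8.41 and 8.37 in WI-C and 10.38, 10.10, 9.77, 10.45 and 9.97 in WI-CMJ, higher by 1.5 (SE 0.27, adjusted p = 0.00709), beside 2.16 in Ctl, and another of its identifiers gave -0.15.

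The 10 genes with the largest fitted rises, among called genes with the same sign in all 5 pairs, included HCRTR1, an orexin receptor. It read 1.34, 0.47, 2.42, 1.39 and 0.60 in WI-C, not well above background on any array, and 5.34, 4.87, 4.37, 5.27 and 4.86 in WI-CMJ. With the main background handling it was at least 5.43-fold higher in the junction (adjusted p = 0.00294). On each cortex array this bound used the gene's own signal or the dimmest signal called well above background there, whichever was higher. All bounds given here were set in this way on the dimmer zone, and normexp gave smaller differences for HCRTR1, DKK2 and INSRR. WIF1 and DKK2, secreted inhibitors of WNT signaling, were higher by 2.79 (adjusted p = 0.0224) and at least 3.25-fold (adjusted p = 0.0109). WIF1 was well above background on 2 of 5 WI-C arrays, and its difference in pairs 2 and 4 was 0.81. The peptide NMU was higher by 2.18 and the glutamate receptor subunit GRIN2B by 1.94, but in the cortex they were well above background on 2 and 1 of 5 arrays, so the sizes are uncertain. The protease inhibitor PI15 was higher by 2.11, the vessel collagen COL8A1 by 2.10, the matrix glycoprotein TNC by 1.94 and the growth factor GDF7 by 1.93. Pairs 2 and 4 gave 2.19 for NMU, 2.42 for GRIN2B, 2.53 for TNC and 2.25 for GDF7, but 0.95 for PI15 and 0.62 for COL8A1. For DKK2 they gave 1.35, beside 2.25 with all pairs. In Ctl kidneys HCRTR1, NMU, GDF7, TNC and GRIN2B were also called, with differences of 3.95, 3.14, 2.10, 1.63 and 1.59, whereas WIF1, PI15 and COL8A1 were at 0.83, 0.82 and 0.16 and, like DKK2, were not called there. The Ctl-C means of HCRTR1, NMU and GRIN2B, 0.88, 1.60 and 1.93, lay below their WI-C means, so their Ctl sizes are uncertain too. EPO, the hormone of red cell production made by interstitial fibroblasts near the junction, read 5.76, 3.84, 4.81, 5.91 and 5.56 in WI-C and 7.57, 5.45, 7.23, 7.69 and 7.59 in WI-CMJ. It was higher in all 5 pairs, by 1.93 (SE 0.33, adjusted p = 0.00478), beside 1.90 in Ctl. Without the pairing EPO, TNC and GRIN2B were not called (adjusted p = 0.0844, 0.0768 and 0.169). Normexp left COL8A1, TNC and EPO called among these 10 rises, at 0.74, 0.55 and 0.75, and gave 0.25 for HCRTR1 and 0.10 to 0.49 for the other 6.

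Among the largest falls after SLC26A4 was CYP1A1, a detoxifying oxidase of the aryl hydrocarbon receptor pathway. It had 4.36, 6.48, 5.44, 3.97 and 4.97 in WI-C and 2.34, 4.77, 3.40, 1.04 and 3.20 in WI-CMJ. The groups overlapped, but the junction was lower in all 5 pairs, by -2.09 (adjusted p = 0.000904). This call rests on the pairing, since the adjusted p was 0.4 without it, and normexp gave -0.28. PLET1 was lower at -1.67, the endothelial proteoglycan ESM1 at -1.54, the hyaluronan synthase HAS1 at -1.30 (well above background on 1 of 5 WI-CMJ arrays), TLDC2 at -1.22, the serpin SERPINA3-2 at -1.15 and the stem cell factor SALL4 at -1.15 (on 2 of 5). SLC26A4, CYP1A1, PLET1 and ESM1 were called in Ctl too, the last 3 at -1.44, -1.27 and -1.26. HAS1 was at -0.07 in Ctl, but between means of 1.19 in Ctl-C and 1.12 in Ctl-CMJ. Both lay below its WI-CMJ mean of 1.91, so its Ctl size is uncertain. The receptor INSRR was at least 1.84-fold lower by the same kind of bound, as no WI-CMJ array was well above background for it. With normexp INSRR was at -0.06 and not called. A second identifier of SERPINA3-2 gave 0.40. Without the pairing INSRR, HAS1, SERPINA3-2 and SALL4 were not called (adjusted p = 0.169, 0.0575, 0.167 and 0.0654), and normexp kept the calls of PLET1, ESM1 and TLDC2 among the 10 falls. IL1RAPL1 also passed (adjusted p = 0.0376) but was not well above background in either group.

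Over all identifiers 1.68% were called, and the counts of the metabolic, stress and inflammatory lists stand beside that share. Neither glycolysis (15 measured, median 0.19), gluconeogenesis (10, -0.12) nor fatty acid oxidation (22, -0.17) held a called gene. Of 27 hypoxia targets only EPO was called, while DDIT4, an inhibitor of the growth kinase mTOR, was at 0.44 and VEGFA at -0.39. Of 16 heat shock genes CRYAB was called, at 0.96, beside 1.27 in Ctl. IL6, the acute-phase cytokine, was the 1 called of 22 NF-kB targets and cytokines, and read 2.50, 3.01, 2.32, 2.78 and 2.59 in WI-C and 4.05, 3.84, 3.49, 3.86 and 3.57 in WI-CMJ. The groups did not overlap, and the difference was 1.12 (SE 0.28, adjusted p = 0.0401), beside 1.60 in Ctl. The IL6 call was lost without the pairing (adjusted p = 0.122), with any replicate left out, with scan day as a term (adjusted p = 0.0521) and with normexp (0.09). Of 15 measured genes of the tubular injury list 8 had a positive and 7 a negative sign, with a median of 0.23 (0.15 in Ctl), and CTGF, LCN2 and VIM were called higher. LCN2, an iron-binding protein of injured tubules, was at 1.15 (0.87 in Ctl), and at 0.44 with normexp, below the size for a call. The filament protein VIM was at 0.56, 0.31 in pairs 2 and 4, and not called without the pairing (adjusted p = 0.258). TGFB3, a ligand of the TGF-beta family, read 5.96, 6.05, 5.85, 5.97 and 5.86 in WI-C and 7.0, 6.69, 7.47, 6.60 and 7.74 in WI-CMJ, higher by 1.16 (adjusted p = 0.00782) and by 0.63 in pairs 2 and 4. Its Ctl difference was 0.07, and another identifier gave -0.08 after WI. The receptor decoy BAMBI was lower at -0.55 (adjusted p = 0.074 without the pairing). Of 26 cytochrome P450 and glutathione S-transferase genes CYP1A1 was lower and CYP2A19 was higher, by 1.23 (adjusted p = 0.0213, and 0.977 without the pairing).

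Whether the zone difference after WI differs from that of the untreated kidney was asked by the same contrast in the Ctl arrays. There 357 identifiers were called, 0.994% of those tested, 284 higher (0.791%) and 73 lower (0.203%), and 9.95% had an unadjusted p under 0.05. The calls shared 209 identifiers, 34.6% of the WI calls and 58.5% of the Ctl calls, and 571 of the 604 WI calls had the same sign in Ctl. The 209 had a median size of 0.98 in WI and 0.99 in WI pairs 2 and 4. The 395 called after WI and not in Ctl had 0.79, and 0.62 in pairs 2 and 4. Direct tests of the WI difference minus the Ctl difference called 0 identifiers by limma (1095 at an unadjusted p under 0.05, 3.05%), with a lowest adjusted p of 0.321.

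FOS and BTG2 were among the identifiers with the lowest adjusted p. FOS read 9.75, 9.45, 9.81, 9.12 and 10.13 in Ctl-C and 10.09, 9.39, 9.55, 9.29 and 10.74 in Ctl-CMJ. The Ctl groups overlapped, the mean difference was 0.16, and the junction was the higher in 3 of 5 pairs. The WI difference exceeded it by 1.32 (SE 0.24, adjusted p = 0.321). BTG2 was at 0.76 after WI and -0.25 in Ctl (adjusted p = 0.321 for the change). EGR1, at 3.38, 2.77, 2.92, 2.45 and 4.05 in Ctl-C and 3.56, 2.67, 3.32, 3.08 and 4.38 in Ctl-CMJ, had overlapping groups and a difference of 0.29, and the change with WI was 1.01 (SE 0.20, adjusted p = 0.618). For KLF4 the change was 0.81 (Ctl difference 0.54) and for COL1A1 1.63 (Ctl 0.05), each with an adjusted p of 1. FOSB was not well above background on any Ctl array, so it has no measured Ctl difference. None of these changes passed the correction over all identifiers. AKR1B1, aldose reductase, which makes the osmolyte sorbitol, went the other way, at 0.43 (adjusted p = 0.609) after WI and 1.83 (adjusted p = 0.00246) in Ctl, but its change of -1.40 did not pass either (SE 0.36, adjusted p = 1).

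**Figure D4:**
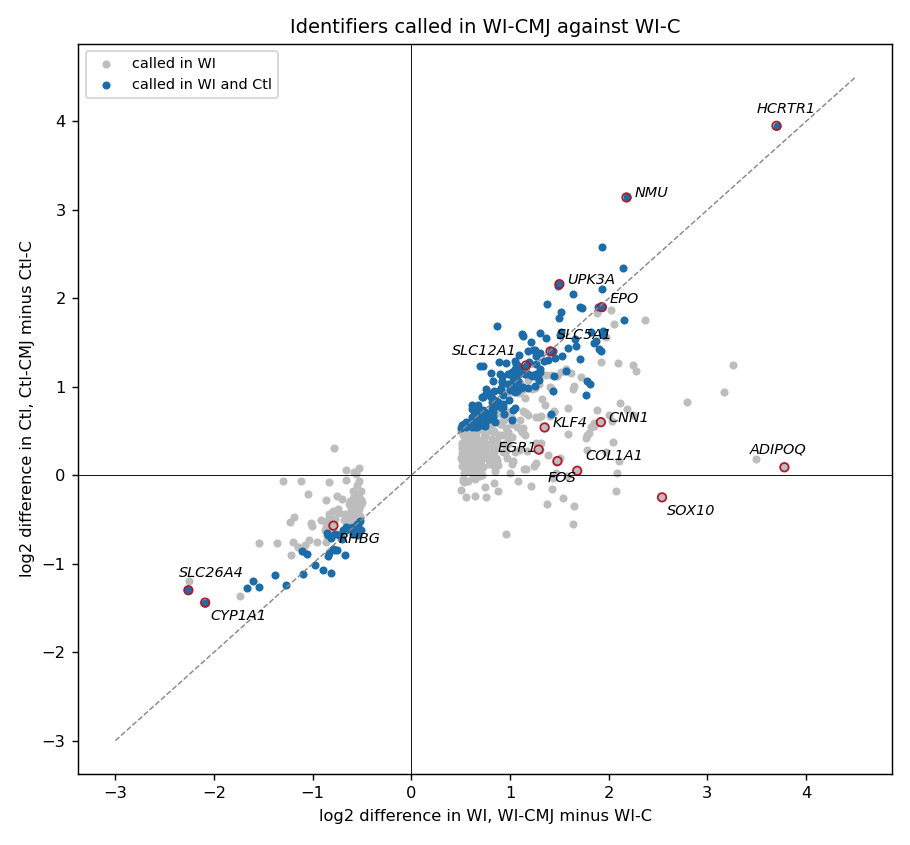
Log2 difference, junction minus cortex, after WI (horizontal axis) and in Ctl kidneys (vertical axis) for the 604 identifiers called after WI. Blue points were called in both conditions (209), gray points after WI only, the dashed line marks equal differences, and named genes are ringed in red. Since the points were chosen by their WI difference, they lie away from 0 on the horizontal axis; FOS, EGR1 and COL1A1 have Ctl differences of 0.16, 0.29 and 0.05.

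In the kidneys that had cold storage after the same WI, 18 identifiers were called between the zones at 6 h (0.0501%), 13 higher (0.0362%) and 5 lower (0.0139%), while 4753 had an unadjusted p under 0.05 (13.2%, beside 4040 or 11.2% after WI alone). At 24 h 0 were called by limma (2243 at an unadjusted p under 0.05, 6.24%). The FOS difference was 0.52 at 6 h and 0.63 at 24 h, that of EGR1 0.05 and 0.17, and that of KLF4 0.39 and 0.43. COL1A1 was at 0.33 and 0.54, and CNN1 at -0.05 and 0.12. SLC5A1 was at 1.29 and 0.78, EPO at 0.99 and 0.96, and SLC26A4 at -1.49 and -1.14. Setting WI against the mean of both storage times called 0 identifiers (2135 at an unadjusted p under 0.05, 5.94%), and EGR1 had the lowest adjusted p, 0.0771, for a change of 1.19.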

How the data were processed

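Total RNA of 40 biopsies was labelled with Cy3 and each sample was hybridised to its own 1-colour Agilent array. The authors deposited the scanner's intensity tables, made with Agilent Feature Extraction 11.5.1.1, and a log2 table made with R 2.15.2 and limma per the submitters' processing notes. The deposited log2 values were those of the median pixel intensity, quantile normalised over all arrays (99.97% of 1286120 values matched within 1e-08). The genome build is not given in the sources used here, so no coordinates are printed.

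From the processed intensity, log2 values of spots outside the controls, without those marked as outliers, were quantile normalised over the 40 arrays and averaged per identifier (R 4.3.3, limma 3.58.1 and the data.table package, version 1.17.8, with figures by Python 3.11.15 and matplotlib 3.10.9). The fit took 20 differences, junction minus cortex of the same number, 5 per condition in 4 conditions, with 1 term per condition and a shared spread. The 6 h and 24 h samples come from the same kidneys per the labels but entered as separate, so the shared spread, on which every p-value rests, counts them as independent. P-values were adjusted over 35923 identifiers, and a call needed an adjusted p under 0.05 and a size of at least 0.5. P-values measure the spread between these samples only. Each array is 1 sample, and their number limits the precision.

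Same-numbered junction and cortex arrays deviated together weakly in WI and Ctl: the correlations of their deviations from the group means were 0.18, 0.11, 0.04, 0.06 and 0.14 in WI and -0.05, 0.06, -0.13, 0.08 and 0.06 in Ctl, against 0.13 to 0.46 at 6 h and 0.14 to 0.48 at 24 h of storage, so in WI and Ctl the numbers alone do not establish pairs. The pairing was kept because the comparison was defined with it.

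Of 35955 identifiers 8873 had a symbol, 8022 of them in the array files and most others through a RefSeq table of Sscrofa11.1, and 20 identifiers of 16 genes were named from the array's descriptions or the study's supplement. A gene is given by its brightest identifier over the 40 arrays, and other identifiers are named where used. Named were FOS, EGR1 and COL1A1, the 10 largest rises and falls among called brightest identifiers with a symbol and 5 differences of the same sign, the 5 largest changes with WI in each direction, and up to 4 called members of each list (otherwise the 2 brightest). The comparison and the lists were chosen with earlier results of these data known. Of the lists, that for renin cells had no measured member. Slide (10) and scan day (2) were taken as batches. The statistics were tested on simulated data with independent noise on each array. That simulation held no pair, slide or scan day effects and no arrays of differing makeup, so it does not bear on these. Alternatives covered scaling, background, filters, pairing, batches and left-out replicates.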

Additional observations from a re-analysis of the deposited data

Results flagged for a closer look

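Single arrays that lay far from the other 4 of their group, by the gap to the nearest value, were looked for in 220 gene and group combinations, and chance alone gives about 1 in 20, or 11. The number found, 14, was close to that. They were not spread evenly: most lay on WI-CMJ 2 or WI-C 2, the arrays of pair 2, which is part of pairs 2 and 4. TNC was low in WI-C 2 (2.17, others 4.87 to 5.88) and in WI-CMJ 2 (5.03, others 6.57 to 7.07). In WI-CMJ 2, EPO was low at 5.45 (others 7.23 to 7.69), GC low at 10.22 (others 11.42 to 11.62), TTR low at 14.08 (others 14.64 to 14.69), ITGB2 high at 8.52 (others 7.80 to 7.96) and F2 high at 12.11 (others 11.60 to 11.72). In WI-C 2, TLDC2 was high at 8.32 (others 7.85 to 7.95) and ID3 low at 11.85 (others 12.17 to 12.22). In WI-C 3, UPK3A was high at 9.57 (others 8.33 to 8.46) and TTR high at 14.49 (others 13.46 to 13.75). NES was low in WI-CMJ 1 at 9.94 (others 10.19 to 10.28), CLDN4 high in WI-CMJ 4 at 10.37 (others 9.76 to 9.91) and SLC37A4 low in WI-CMJ 4 at 15.86 (others 16.23 to 16.38).

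BTG2 had opposite signs in WI and Ctl: it was higher in the junction in all 5 WI pairs (mean 0.76, range 0.32 to 1.16) and lower in all 5 Ctl pairs (mean -0.25, range -0.46 to -0.05). The test of the difference gave 1.01 (SE 0.18, unadjusted p = 2.35e-05 by limma), which did not pass the adjustment over all identifiers (adjusted p = 0.321).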

How the results depend on the processing

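All counts are identifiers called after WI, 604 in the report, 472 of them higher. Scaling by the 75th percentile, and quantile normalization within groups or within tissues, kept the count between 549 and 679. So did outlier spots kept, 1 value per probe, a filter on dim identifiers, and scan day or the share of spots above background as a term. It was 160 with normexp and 355 with the deposited log2 values. Without the pairing by number it was 241 (88.4% higher), with the WI arrays alone 0, with slide as a term 0, and with pairs 2 and 4 only 0. Leaving out each replicate in turn gave 213 to 544 calls, lowest without replicates 5, 1 and 4 (213, 228 and 355). The causes were not tested, except that pairs 2 and 4 and the left-out replicates rest on fewer arrays.

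For WI against Ctl the count stayed at 0 except for 1 without replicate 2 (range 0 to 1), and against cold storage it was 1 with the filter on dim identifiers (EGR1, adjusted p = 0.035), 1 with scan day (EGR1, adjusted p = 0.0417) and 0 to 1 over left-out replicates. Of 56 called named genes, 28 were called with normexp, 44 with the deposited values, 30 without the pairing and 28 to 48 with a replicate left out. Signs turned for other identifiers of COL1A1 (-0.16), SERPINA3-2 (0.40), UPK3A (-0.15), TGFB3 (-0.08) and TNNC2 (0.62 and 0.08), in pairs 2 and 4 for NES (0.03) and TNNC2 (0.07), over left-out replicates for FLT1 (-0.02 to 0.19) and SLC37A4 (-0.12 to 0.11), for ITGB2 with slide (-0.01) and GAPDH with 1 value per probe (-0.01). With normexp FOSB was at 0.11 and EGR1 at 0.28.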

Other observations

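The values of some genes of plasma proteins, picked after they were seen and not from a fixed list, are given singly here. Coagulation factor F10 was higher by 1.52 (adjusted p = 0.00492) and by 1.62 in Ctl. F2, prothrombin, was higher by 0.85 (adjusted p = 0.0164) beside 0.68 in Ctl, and F9 by 0.70 (adjusted p = 0.0159) beside 0.53. The vitamin D carrier GC was higher by 1.85 (adjusted p = 0.00174) beside 1.49 in Ctl, the thyroxine carrier TTR by 0.73 (adjusted p = 0.0167) beside 0.67, and the complement subunit C8G by 1.1 (adjusted p = 0.00652) beside 1.21. APOB, the lipoprotein scaffold, was not well above background on any WI-C array and was at least 1.12-fold higher (adjusted p = 0.00478). The heme carrier HPX went the other way, at -0.83 (adjusted p = 0.0192), beside -0.56 in Ctl.

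The identifier ENSSSCT00000012858 of CLDN11, the tight junction protein of myelin and other barriers, also chosen after its values were seen, read 0.70, 1.84, 0.22, 0.48 and 0.61 in WI-C, not well above background on any array, and 4.32, 3.53, 4.62, 2.83 and 4.86 in WI-CMJ. It was at least 3.00-fold higher (adjusted p = 0.00436), with a difference of 1.25 in Ctl that was not called (adjusted p = 0.425). WI-CMJ 1, 3 and 5, the arrays with ADIPOQ signal, were its highest. The brightest CLDN11 identifier, NM_001161641, did not differ in this way, with 0.40 to 2.79 in WI-C, 1.86 to 2.85 in WI-CMJ and a difference of 0.03 (adjusted p = 1).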
